A study of Homo sapiens with 16 samples.

Results

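The comparison of oleic acid with control used 8 of the 16 samples: 4 cultures of HepG2 cells given 100 µM oleic acid for 7 days and 4 given no fatty acid for the same time. The samples were taken by their titles, and all probes entered. HepG2 is an established human liver tumour line that keeps many hepatocyte functions, so it models 1 tumour-derived line and not liver tissue. Both groups were kept without serum, per the series' design text, and 1-colour arrays measured total RNA, amplified and coupled to Cy5. The other 8 samples received elaidic acid or stearic acid. The labels call the 4 samples of a group biological replicates without saying how the cultures were separated, so the intervals measure the spread between these samples.

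Oleic acid is the common cis-monounsaturated fatty acid of diet and body fat. Liver cells take it up, activate it to its CoA ester, store it as triglyceride in lipid droplets, burn it in mitochondria and peroxisomes, or export it in lipoproteins. Fatty acids bind the nuclear receptor PPAR-alpha, which drives genes of oxidation and of the droplet coat. Sterols restrain the SREBP factors, and unsaturated fatty acids restrain mainly SREBP-1. Of these factors SREBP-1 drives mostly fatty acid synthesis and SREBP-2 mostly cholesterol synthesis. The groups below follow these roles.

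No probe differed between oleic acid and control past the threshold. Of 24928 probes tested with limma on log2 intensity, 0 were called higher (0.0%) and 0 lower (0.0%) at a Benjamini-Hochberg adjusted p under 0.05, and the lowest adjusted p was 0.9998. At an unadjusted p under 0.05 there were 519 probes (2.08%), with 260 higher (1.04%) and 259 lower (1.04%) in oleic acid. The 4 oleic acid values all lay above or all below the 4 control values for 340 probes (1.36%), with 168 higher (0.674%) and 172 lower (0.69%). The median absolute log2 difference was 0.21, which is 1.15-fold, and 81.2% of probes differed by less than 0.5. A difference over 1, which is 2-fold, was seen for 1140 probes (4.57%), and 1005 of these were among the 6232 dimmest probes.

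How small a difference these arrays could bound depended on brightness. The 95% confidence interval of a probe reached a median of 0.84 log2 units (1.79-fold) to either side of its estimate. This half-width was 1.20 (2.30-fold) in the 6232 dimmest probes and 0.70 (1.62-fold) in the 6232 brightest. The whole interval lay inside 2-fold either way for 10773 probes (43.2%), a share of 8.66% in the dimmest 6232 and 72.6% in the brightest 6232. An interval inside 1.5-fold either way was reached by 0.939% of probes. For most bright probes the data therefore bound the difference at less than 2-fold, and for most dim probes they do not.

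**Figure D1:**
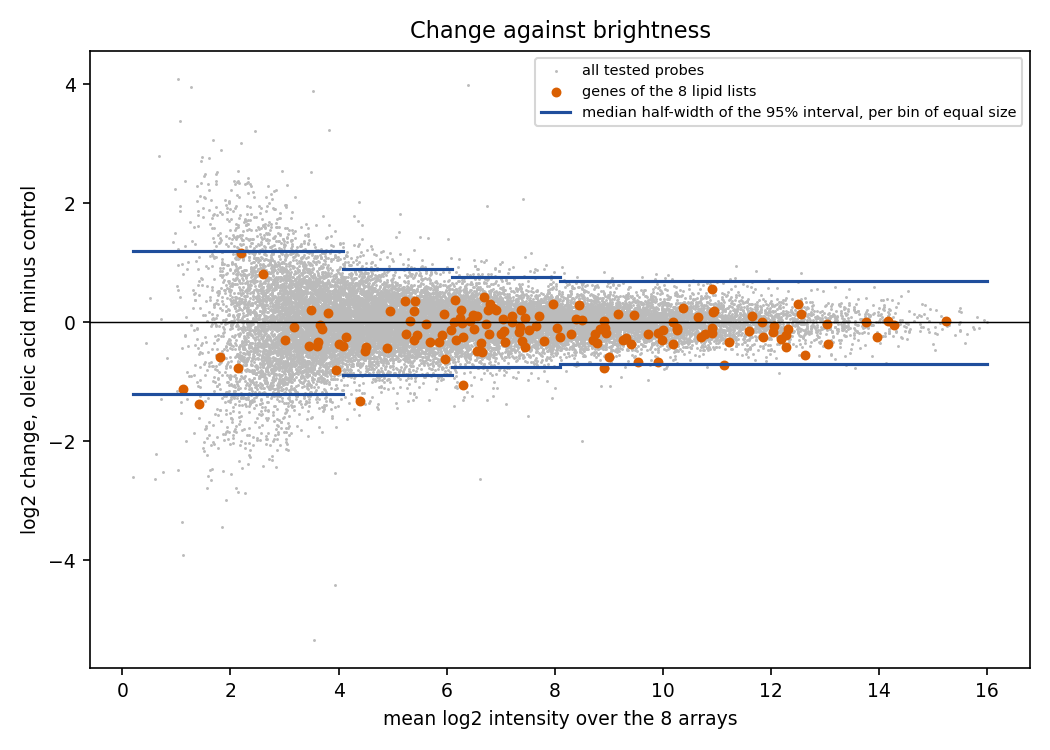
Log2 difference, oleic acid minus control (vertical axis), against the mean log2 intensity over the 8 arrays (horizontal axis). Grey points are the 24928 tested probes, orange points the 138 genes of the 8 lipid lists, and blue lines the median half-width of the 95% interval in 4 equal bins of brightness, which narrows from 1.20 to 0.70; the points spread widest where probes are dim.

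The spread between arrays was larger than the difference between the groups. Median intensity per array was 41.2 ± 22.5 in control and 34.7 ± 13.8 with oleic acid (SD, n = 4 each). The correlation between arrays over all tested probes was 0.892 to 0.943 within control, 0.902 to 0.958 within oleic acid and 0.886 to 0.958 between the groups. On the first principal component, with 31.8% of the variance, group accounted for 2.18% and the log2 median intensity of the array for 70.3%. Spread between cultures cannot be told apart here from spread between arrays. The 2 dimmest arrays, control replicate 1 with a median intensity of 19.95 and oleic acid replicate 4 with 20.7, lay apart from the other 6 on this component, 1 from each group. All 8 arrays lie in 1 range of array numbers. Within that range the numbers of control replicate 4 stand apart from the other 7, and without that sample 0 probes were again called by limma, with 571 at an unadjusted p under 0.05.

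**Figure D2:**
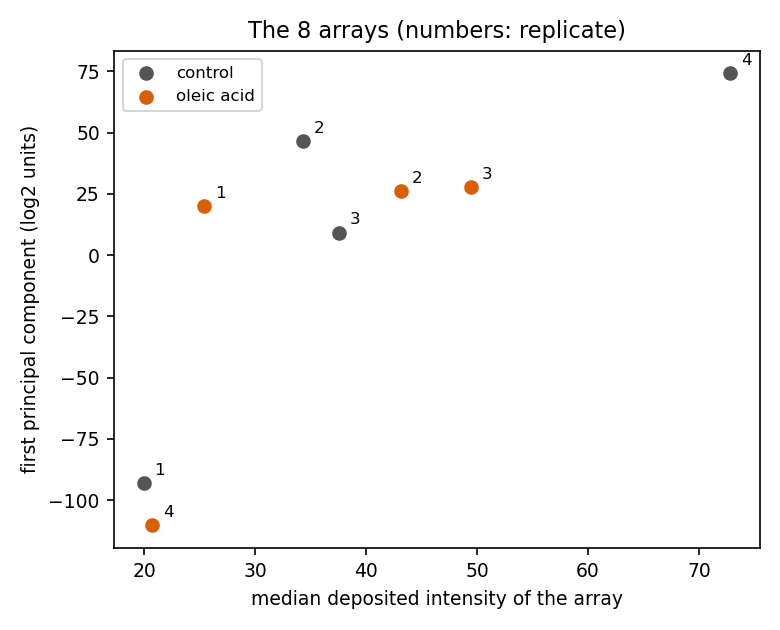
First principal component of the normalised log2 values (vertical axis) against the median deposited intensity of the array (horizontal axis, linear units); points are arrays, coloured by group and numbered by replicate. Control replicate 1 (19.95) and oleic acid replicate 4 (20.7) lie at the lower left, apart from the other 6.

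Several markers of hepatocytes were bright in both groups, and others were not. The apolipoprotein APOA1 lay between 13.43 and 14.62 in control and between 13.22 and 14.80 with oleic acid on the normalised log2 scale, the thyroid hormone carrier TTR between 12.10 and 13.10 and between 11.95 and 13.11, and AFP, the fetal serum protein made by liver tumours, between 10.55 and 13.08 and between 10.80 and 12.33. The iron carrier TF was of middle brightness (6.96 to 9.05 in control, 7.20 to 8.74 with oleic acid). The fibrinogen chain gene FGA was left out, with a deposited intensity at or below 0 on 3 control and 2 oleic acid arrays. ALB was not analysed here. Of 22 markers of other cell types 16 were tested, and their mean log2 value per array ranged from 7.26 to 7.49 in control and from 7.05 to 7.71 with oleic acid. Among them the T cell marker CD3E was dim (1.31 to 4.06 over both groups), as were the endothelial markers PECAM1 and VWF. CDH5, also of endothelial cells, was not dim, at 7.80 to 9.12 in control and 8.33 to 9.83 with oleic acid, nor was the monocyte marker CD14, at 9.89 to 10.52 and 9.85 to 11.16. The biliary markers KRT19 and SOX9 were bright in every array (at least 12.31 and 11.89). None of these markers was called by limma.

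For the 8 lists of lipid genes, 138 of 194 genes were tested. Another 32 were not analysed here, and 24 were left out because a value was at or below 0. None of the 138 was called (background 0.0% in each direction). The log2 difference was below 0 for 93 and above 0 for 45, with a median of -0.13 against 0.01 over all probes, where 48.3% lay below 0. For 121 genes it was smaller than 0.5 in size, and 137 of the 138 intervals included 0. The exception was ACAA1, at an unadjusted p under 0.05 where 2.08% of all probes were. For 60 genes the interval lay inside 2-fold either way (43.2% of all probes had such an interval), and for 2 it lay inside 1.5-fold. For the other 78 a 2-fold difference in at least 1 direction lies inside the interval. The count of 60 was 37 without control replicate 3, 35 with the replicate number as a block and 26 without normalisation between arrays.

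**Figure D3:**
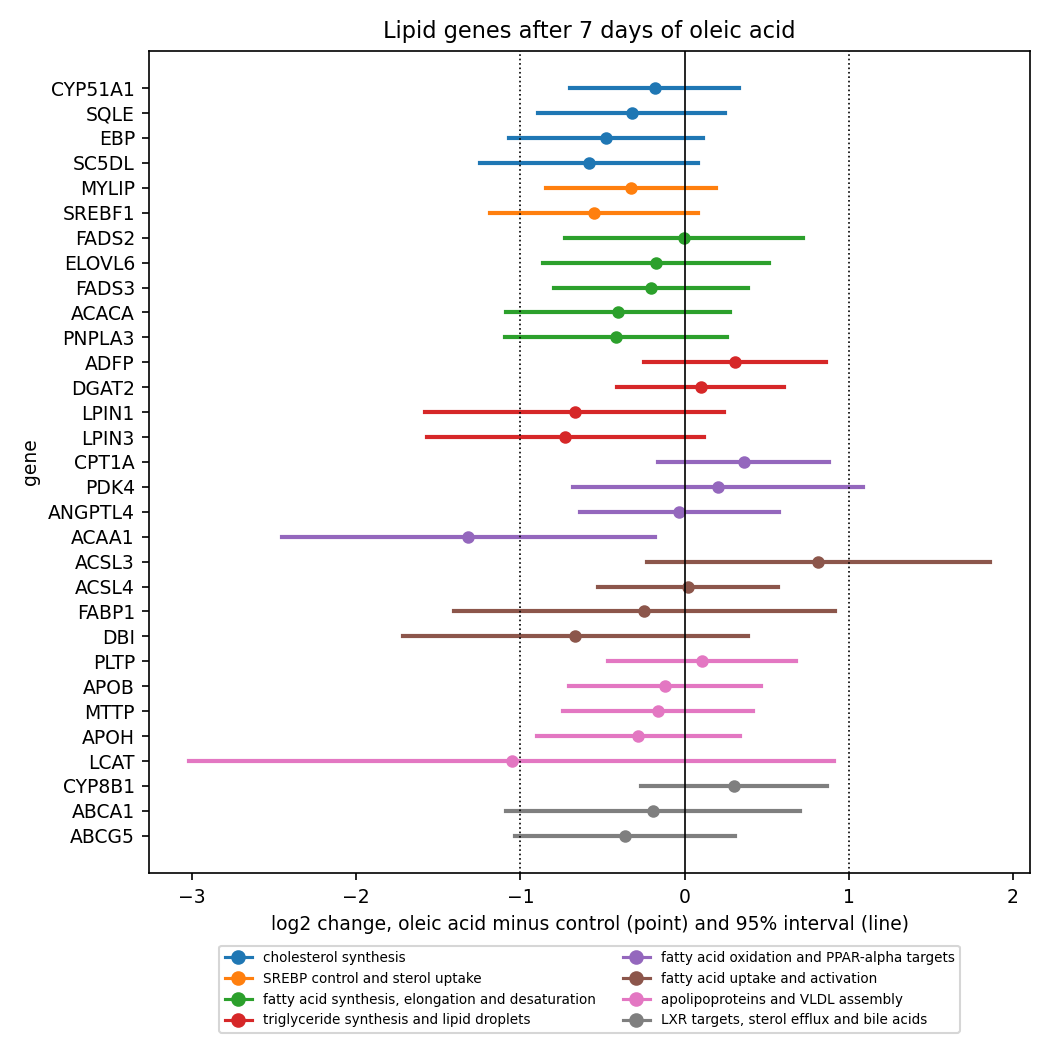
Log2 difference, oleic acid minus control (points), with its 95% confidence interval (lines) for the named lipid genes, coloured by list; dotted lines mark 2-fold either way. All intervals except that of ACAA1 (-2.45 to -0.18) cross 0; INSIG1, whose interval runs from -4.94 to 2.69, is not drawn.

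ADFP, now called PLIN2, codes for a protein that coats lipid droplets. Its normalised log2 intensity was 12.40, 12.50, 12.50 and 12.002 in control replicates 1 to 4 and 12.67, 12.80, 12.40 and 12.75 in oleic acid replicates 1 to 4. Oleic acid replicates 1, 2 and 4 lay above every control and replicate 3 lay among them. The log2 difference was 0.30 (95% interval -0.25 to 0.86, or 0.84-fold to 1.81-fold).

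CPT1A, the carnitine palmitoyltransferase that admits fatty acids to mitochondria, was the lipid gene, 1 of the 138, whose groups did not overlap on the normalised scale. Its values were 5.26, 5.15, 5.30 and 5.26 in control and 5.69, 5.79, 5.57 and 5.34 with oleic acid. The lowest oleic acid value, of replicate 4, lay just above the highest control, of replicate 3. On the deposited scale its oleic acid intensities, 23.5 to 73.3, all lay inside the control range of 21.4 to 79.4. The log2 difference was 0.36 (-0.16 to 0.88, or 0.89-fold to 1.84-fold). Over all probes 0.674% had all oleic acid values above all control values.

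PDK4, the kinase that holds back pyruvate oxidation, was dim and its groups overlapped. Its values were 3.82, 2.36, 4.09 and 3.27 in control and 3.45, 3.57, 4.01 and 3.33 with oleic acid, a difference of 0.20 (-0.68 to 1.09). A second probe of PDK4 differed by 0.00. ANGPTL4, a secreted inhibitor of lipoprotein lipase, had 7.05, 6.44, 7.09 and 6.39 in control and 6.52, 6.77, 6.77 and 6.78 with oleic acid. Its oleic acid values all lay inside the control range, and the difference of -0.03 was bounded between 0.64-fold and 1.49-fold.

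The list of fatty acid oxidation and PPAR-alpha targets had 28 of 42 genes tested, 11 above 0 and 17 below, with a median log2 difference of -0.04. Its mean log2 value per array was 7.62, 8.07, 8.02 and 8.28 in control and 8.16, 8.06, 8.02 and 7.44 with oleic acid. The lowest values were those of control replicate 1 and oleic acid replicate 4, the 2 dimmest arrays. The median of the list was above 0 in 5 of 22 alternative analyses. These included a covariate for array brightness and leaving out oleic acid replicate 4. It stayed below 0 without the 2 dimmest arrays. Why these 2 arrays were low was not tested. The receptor PPARA itself differed by 0.24 (-0.57 to 1.06), and HADH, of the mitochondrial spiral, by 0.18 (-0.35 to 0.71). ACADVL, the very-long-chain acyl-CoA dehydrogenase and a bright member, differed by -0.00 (-0.80 to 0.80).

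ACAA1, the peroxisomal thiolase, was lower with oleic acid in its mean and did not pass. Its values were 4.85, 5.19, 4.43 and 5.78 in control and 3.42, 4.60, 4.48 and 2.49 with oleic acid. Oleic acid replicates 2 and 3 lay within the control range, and replicates 1 and 4 below it. The difference was -1.32 (-2.45 to -0.18; limma adjusted p = 0.9998), and the value was -0.66 with array weights.

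**Figure D4:**
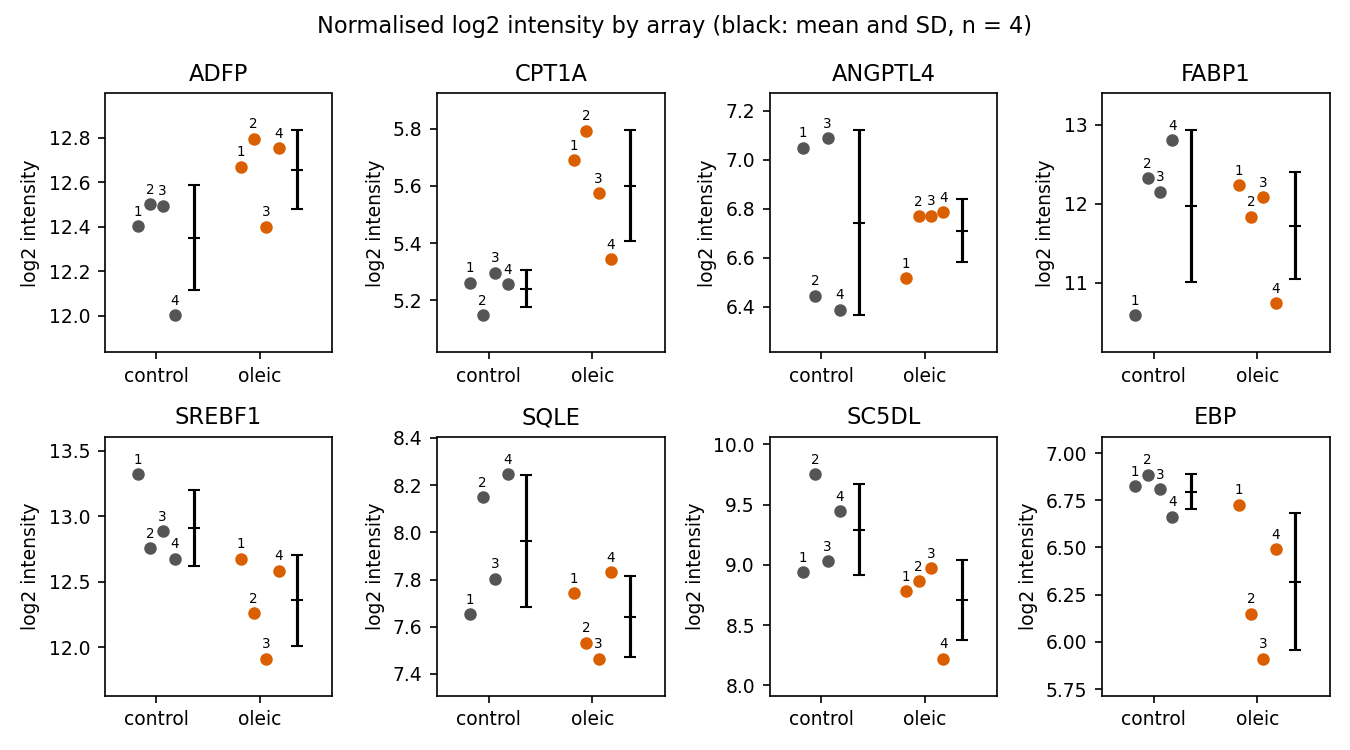
Normalised log2 intensity of 8 lipid genes on each array, control in grey and oleic acid in orange, numbered by replicate; black bars are the mean and SD (n = 4), and each panel has its own axis that does not start at 0. The groups overlap in every panel except that of CPT1A, and control replicate 1 and oleic acid replicate 4 are the lowest for FABP1 (10.59 and 10.74).

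All 15 tested members of the 20 cholesterol synthesis genes lay below 0, from -0.76 to -0.16, with a median of -0.34, where 48.3% of all probes lay below 0. None of the 15 was called (background 0.0% lower), and each interval included 0. The mean log2 value of the list was 8.12, 8.59, 8.38 and 8.47 in control and 8.32, 8.12, 7.87 and 7.80 with oleic acid, with means of 8.39 ± 0.20 and 8.03 ± 0.24 (SD, n = 4 each). Oleic acid replicate 1 lay within the control range, replicate 2 at its lower end and replicates 3 and 4 below it. These genes are known to be driven together by SREBP-2, so their values are not 15 separate measurements.

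SC5DL, now SC5D, codes for a late sterol desaturase. It had 8.94, 9.75, 9.03 and 9.45 in control and 8.78, 8.86, 8.97 and 8.22 with oleic acid. The ranges overlapped only between 8.94 and 8.97, and the difference was -0.58 (-1.25 to 0.08). EBP, a sterol isomerase, had 6.82, 6.89, 6.81 and 6.66 in control and 6.73, 6.15, 5.91 and 6.49 with oleic acid. Oleic acid replicates 2, 3 and 4 lay below every control and replicate 1 did not, for a difference of -0.48 (-1.07 to 0.11).

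SQLE, the squalene epoxidase, differed by -0.32 (-0.89 to 0.25), with 7.65, 8.15, 7.80 and 8.25 in control and 7.74, 7.53, 7.46 and 7.83 with oleic acid. The controls and oleic acid values overlapped between 7.65 and 7.83. CYP51A1, the lanosterol demethylase, had the narrowest interval of the list, -0.70 to 0.33 around -0.18. A second, separate probe of CYP51A1 differed by 0.34 (-0.36 to 1.05), so the 2 probes of this gene disagreed in sign. FDFT1, the squalene synthase, had the lowest estimate, -0.76, and a wide interval (-2.16 to 0.63).

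Without oleic acid replicate 4, 1 of the 15 members lay above 0; in the other 21 alternative analyses every member tested stayed below 0, and the median of the list ran from -0.45 to -0.24 over all 22. No alternative brought a member past the threshold.

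The promoters of these genes are shown because the list shares a known control. Windows of 250 bases before the start site were taken from RefSeq (GRCh38.p14) for the tested genes, and 12 of the 15 cholesterol synthesis genes matched, with 16 windows. A CCAAT box (CCAAT, on either strand), where NF-Y binds, was in 13 of the 16 windows (81.2%), against 32.0% of all 35116 windows. The sterol element searched was TCACNCCAC, on either strand, in 0 of the 16 windows and 0.883% of all. The CCAAT box and the sterol element cannot share a whole match, and the printed ones lie apart. The PPAR element searched, DR1, is AGGTCA repeated after any 1 base, on either strand, and was in none of the windows of the 8 lipid lists and in 6 of all. Only exact matches within the 250 bases were searched. Such matches of either element are rare among all windows, so finding none does not show that a gene lacks one. Below are SREBF2, the gene of the factor itself, at chr22:41832855-41833104, EBP at chrX:48521558-48521807 and SC5D at chr11:121292521-121292770, all on the plus strand. Capitals mark the sterol element and the CCAAT boxes, and ATTGG is CCAAT on the other strand.
SREBF2: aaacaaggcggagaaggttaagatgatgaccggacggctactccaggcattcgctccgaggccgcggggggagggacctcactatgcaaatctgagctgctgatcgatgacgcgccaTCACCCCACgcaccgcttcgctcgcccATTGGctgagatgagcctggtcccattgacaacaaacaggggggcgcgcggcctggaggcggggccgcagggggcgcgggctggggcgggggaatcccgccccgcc
EBP: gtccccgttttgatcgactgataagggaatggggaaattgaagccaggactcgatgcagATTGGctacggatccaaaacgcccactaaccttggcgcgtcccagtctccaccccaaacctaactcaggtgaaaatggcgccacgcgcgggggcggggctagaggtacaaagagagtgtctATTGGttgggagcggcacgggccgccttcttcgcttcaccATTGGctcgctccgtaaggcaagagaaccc
SC5D: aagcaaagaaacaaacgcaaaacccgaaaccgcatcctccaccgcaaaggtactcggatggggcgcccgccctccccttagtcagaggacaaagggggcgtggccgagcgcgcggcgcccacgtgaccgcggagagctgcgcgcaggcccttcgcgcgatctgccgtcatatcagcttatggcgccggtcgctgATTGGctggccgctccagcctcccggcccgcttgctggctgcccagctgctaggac
The SREBF2 window holds 1 sterol element and 1 CCAAT box, that of EBP holds 3 CCAAT boxes and that of SC5D holds 1. These matches describe letters only and were not measured for binding.

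The SREBP system itself was measured in 15 of 18 genes, 4 above 0 and 11 below, with a median of -0.30. That median was -0.47 without control replicate 1, -0.09 without oleic acid replicate 4 and -0.05 without control replicate 4. SREBF1, the gene of SREBP-1, which drives fatty acid synthesis, was bright: 13.32, 12.75, 12.88 and 12.67 in control and 12.68, 12.26, 11.91 and 12.58 with oleic acid. Oleic acid replicate 1 lay just above the lowest control, and replicates 2, 3 and 4 below all controls. The difference was -0.55 (-1.18 to 0.08, or 0.44-fold to 1.06-fold), and a second probe gave -0.49. SREBF2 differed by 0.03 (-0.93 to 0.99) and the sensor SCAP by 0.16 (-0.57 to 0.90). MYLIP, a ubiquitin ligase induced by sterols, differed by -0.33 (-0.85 to 0.19). INSIG1, which retains SCAP, was near background, and its interval ran from -4.94 to 2.69.

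Fatty acid synthesis, elongation and desaturation had 18 of 21 genes tested, 3 above 0 and 15 below, with a median of -0.14. ELOVL6, the elongase of saturated and monounsaturated fatty acids, had 10.41, 10.26, 9.85 and 9.49 in control and 9.65, 9.68, 9.62 and 10.35 with oleic acid. The groups overlapped across nearly the whole range, for a difference of -0.18 (-0.86 to 0.51). The desaturase FADS2 differed by -0.00 (-0.73 to 0.72) and FADS3 by -0.20 (-0.80 to 0.39). ACACA, the acetyl-CoA carboxylase that commits carbon to fat, differed by -0.40 (-1.09 to 0.28), and PNPLA3, a lipase on droplets that SREBP-1 drives, by -0.42 (-1.09 to 0.26). SCD, the desaturase that makes oleic acid from stearic acid, was left out because its deposited intensity was at or below 0 in oleic acid replicate 3. FADS1 and FASN were not analysed here.

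Triglyceride synthesis and lipid droplets had 19 of 26 genes tested, 9 above 0 and 10 below, with a median of -0.01. DGAT2, which adds the last acyl chain of triglyceride, had the narrowest interval of the list, at 0.10 (-0.41 to 0.61, or 0.75-fold to 1.52-fold). Its values were 7.78, 7.64, 7.78 and 7.44 in control and 7.80, 7.73, 7.78 and 7.73 with oleic acid, with the treated cultures close together inside or just above the control range. DGAT1 differed by 0.01 (-0.63 to 0.64). The phosphatidate phosphatase LPIN1 had 9.46, 10.91, 9.93 and 10.66 in control and 9.84, 9.92, 9.76 and 8.77 with oleic acid, a difference of -0.67 (-1.58 to 0.24) and of -0.61 at a second probe. Oleic acid replicate 4 was the lowest of the 8. Its relative LPIN3 differed by -0.73 (-1.57 to 0.12) at the brighter probe and by 0.02 at the other.

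Uptake and activation had 15 of 24 genes tested, 6 above 0 and 9 below, with a median of -0.08. FABP1, the liver fatty acid binding protein, had 10.59, 12.32, 12.15 and 12.80 in control and 12.23, 11.84, 12.08 and 10.74 with oleic acid. Again the 2 low values were those of control replicate 1 and oleic acid replicate 4, and the difference was -0.24 (-1.41 to 0.92), with -0.55 at a second probe. Of the acyl-CoA synthetases, ACSL4 was bounded best, at 0.02 (-0.53 to 0.57, or 0.69-fold to 1.48-fold), and ACSL3, a dim probe, had 0.82 (-0.23 to 1.86). DBI, the acyl-CoA binding protein, differed by -0.66 (-1.71 to 0.39).

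Among apolipoproteins and the genes of VLDL assembly 15 of 23 were tested, 7 above 0 and 8 below, with a median of -0.12. APOB, the structural protein of VLDL, had 12.19, 12.71, 12.20 and 12.38 in control and 12.36, 12.35, 12.44 and 11.85 with oleic acid. Oleic acid replicates 1, 2 and 3 lay within the control range and replicate 4 below it, for a difference of -0.12 (-0.71 to 0.47), and a second probe gave 0.16. MTTP, which loads lipid onto APOB, differed by -0.16 (-0.74 to 0.41), APOH by -0.28 (-0.90 to 0.34) and the phospholipid transfer protein PLTP by 0.11 (-0.47 to 0.68). LCAT, the plasma cholesterol acyltransferase, had -1.05 with a wide interval (-3.02 to 0.91), and its value in oleic acid replicate 4 was 2.94 where the other 7 lay between 5.83 and 7.60.

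LXR targets, sterol efflux and bile acids had 13 of 20 genes tested, 5 above 0 and 8 below, with a median of -0.11. The sterol exporter ABCA1 had 7.93, 9.07, 9.17 and 9.16 in control and 9.08, 8.99, 8.70 and 7.80 with oleic acid. Its 2 low values belonged to control replicate 1 and oleic acid replicate 4, and the difference was -0.19 (-1.09 to 0.71). ABCG5, a partner in the sterol exporter of the canalicular membrane, differed by -0.36 (-1.03 to 0.31), and CYP8B1, the sterol hydroxylase of cholic acid synthesis, by 0.30 (-0.27 to 0.87).

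**Figure D5:**
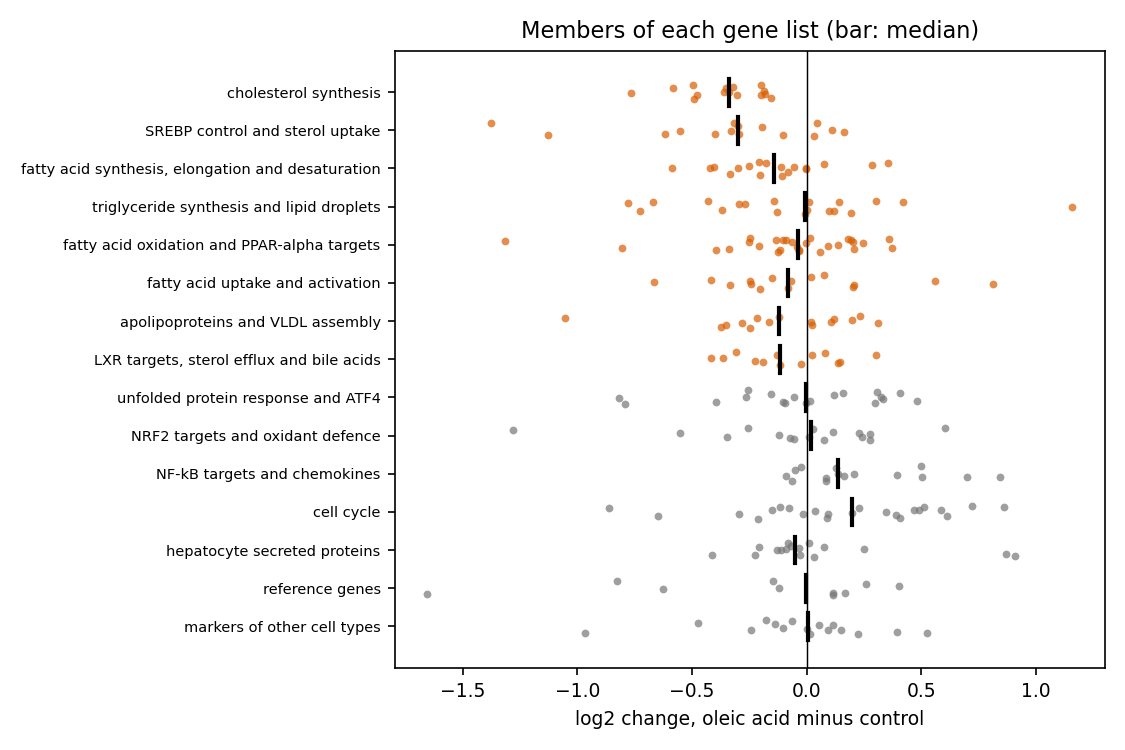
Log2 difference, oleic acid minus control (horizontal axis), of each tested member of the 15 gene lists; points are genes, orange for the 8 lipid lists and grey for the others, shifted vertically for clarity, and black bars are list medians. All 15 cholesterol synthesis genes lie left of 0 (median -0.34), while the unfolded protein response genes lie on both sides (median -0.00).

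The 7 lists outside lipid metabolism had no called member either (background 0.0%). Of the NF-kB targets and chemokines 15 of 21 were tested, 11 above 0 and 4 below (51.7% of all probes lay above 0), with a median of 0.14. Their mean log2 value per array was 7.51, 7.44, 7.67 and 7.58 in control and 7.73, 7.75, 7.68 and 7.99 with oleic acid. The groups just failed to overlap, with 7.67 as the highest control and 7.68 as the lowest oleic acid value. Of the 15 lists only this list had means that did not overlap. Neither its means nor its median were followed in the alternative analyses. TNFAIP3, the feedback inhibitor of NF-kB, had 12.05, 11.96, 11.95 and 11.71 in control and 12.35, 12.44, 12.14 and 12.32 with oleic acid. All 4 treated cultures lay above all controls, as for 0.674% of all probes, and the difference was 0.40 (-0.12 to 0.91). On the deposited scale the groups of TNFAIP3 overlapped, with 2540 to 5317 in control and 3702 to 6337 with oleic acid.

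Cell cycle genes had 23 of 28 tested, 15 above 0 and 8 below, with a median of 0.20. CCNB2, a mitotic cyclin, had 6.58, 6.19, 7.20 and 6.21 in control and 7.28, 7.93, 7.42 and 6.99 with oleic acid. Control replicate 3 lay above oleic acid replicate 4, and the difference was 0.86 (0.13 to 1.60; limma adjusted p = 0.9998). RRM2, which makes deoxynucleotides as part of ribonucleotide reductase, differed by 0.59 (-0.03 to 1.21). It was the 1 member of the 23 whose groups did not overlap, where 0.674% of all probes had all oleic acid values higher. The mean log2 values of the list per array overlapped, from 6.25 to 6.45 in control and from 6.40 to 6.72 with oleic acid. MKI67, the proliferation marker, differed by 0.49 (-0.11 to 1.09), whereas the replication clamp PCNA differed by -0.30 (-1.22 to 0.63). The median of this list was -0.00 without normalisation between arrays.

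In the unfolded protein response and ATF4 list, 19 of 21 genes were tested with a median of -0.00. DNAJB9, a chaperone of the endoplasmic reticulum, had 4.74, 5.40, 5.08 and 4.99 in control and 4.15, 4.85, 4.15 and 3.90 with oleic acid, a difference of -0.79 (-1.45 to -0.14; limma adjusted p = 0.9998), with oleic acid replicate 2 inside the control range. The NRF2 list had a median of 0.02 over 16 of 24 genes, and TXNRD1, thioredoxin reductase, differed by -1.28 (-2.70 to 0.14) with 1 low value, 0.90, in oleic acid replicate 1. Secreted hepatocyte proteins had a median of -0.05 over 16 of 20, and the adhesive plasma protein VTN differed by 0.91 (-0.54 to 2.36). Reference genes had a median of -0.00 over 10 of 16. The TATA-binding protein gene TBP, a dim probe here, was the member furthest from 0 by its p, at -1.65 (-3.33 to 0.02). The median over 16 of 22 markers of other cell types was 0.01, and LRAT, of vitamin A storing cells, differed by -0.96 (-2.61 to 0.68).

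The 12 probes of smallest p with a symbol, 6 on each side of 0, were mostly dim, and none passed. Above 0 were OGG1, a DNA glycosylase, at 2.29 (1.27 to 3.32), CD28, a T cell receptor, at 2.10 (1.01 to 3.20), RBM33 at 1.26 (0.55 to 1.97), TMEM37 at 1.08 (0.53 to 1.63), IGFL3 at 1.05 (0.49 to 1.62) and CHRNB3, a nicotinic receptor subunit, at 0.95 (0.43 to 1.48). OGG1 had deposited intensities of 2.72, 4.56, 1.31 and 5.90 in control and 9.03, 14.98, 12.60 and 17.02 with oleic acid, each below its array's median intensity. IGFL3 was the brightest of the 6, with normalised log2 values of 5.88, 5.30, 5.69 and 5.95 in control and 6.56, 6.78, 6.90 and 6.80 with oleic acid. Another probe of RBM33 differed by 0.01, and another probe of TMEM37 by -0.04.

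Below 0 were SMARCAD1, a chromatin remodeller, at -5.33 (-8.19 to -2.48), TTC26 at -2.52 (-3.75 to -1.29), IL26 at -2.51 (-3.90 to -1.11), EVI5 at -1.90 (-3.00 to -0.80), C9orf61 at -1.83 (-2.68 to -0.98) and ZNF274 at -1.32 (-2.13 to -0.51). SMARCAD1 had deposited intensities of 7.13, 245.3, 117.3 and 219.9 in control and 6.51, 0.512, 7.51 and 0.379 with oleic acid. Controls 2, 3 and 4 were bright and control 1 was as dim as the treated cultures. On the normalised scale the groups of these 12 probes do not overlap, which the choice by smallest p favours; on the deposited scale some do, SMARCAD1 among them. With every probe kept at a floor of 10, OGG1 came to 0.62, CD28 to 1.01, C9orf61 to -0.21, TTC26 to 0.00, IL26 to -0.38, EVI5 to -0.75 and SMARCAD1 to -3.07. The floor makes values under 10 equal, so TTC26, with all its values under it, was bound to give 0.00. In the main fit the lowest limma adjusted p of the 12 probes was 0.9998.

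The size of the oleic acid difference can be set beside that of elaidic acid, the trans isomer of oleic acid, given at the same 100 µM for the same 7 days. This is 1 pair of compounds. The array numbers fall into 2 ranges, and only elaidic acid replicates 2 and 4 share the range of the control and oleic acid samples, so values came from a fit of all 16 samples with the range as covariate, on 22939 probes adjusted together. With that covariate the elaidic acid differences rest on elaidic acid replicates 2 and 4 alone, 2 samples against 4. Oleic acid minus control rests on 4 against 4. Both differences from control use the same control samples. Elaidic acid minus control had 9 probes called (0.0392%), and elaidic acid minus oleic acid had 5 (0.0218%). CYP51A1 falls under the naming rule, and the other 4 were chosen after their values were seen. The 5 were PCOLCE at 1.99, KNG1 at 1.85, CYP51A1 at 1.55, a probe without symbol at 1.60, and CCDC45 at -2.31 (limma adjusted p = 0.036 for each).

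For cholesterol synthesis the median log2 difference in this fit was -0.33 for oleic acid minus control and 0.83 for elaidic acid minus control. It was 1.18 for elaidic acid minus oleic acid. All 15 of 15 members were higher with elaidic acid than with oleic acid, as were 11643 of all 22939 probes. CYP51A1 alone of the 15 was called, at 1.55 (1.06 to 2.04), with -0.19 for oleic acid minus control and 1.36 for elaidic acid minus control. This call rests on 1 probe and on 2 elaidic acid samples. The second probe of CYP51A1, at 0.34 for oleic acid minus control in the fit of 8 samples, was not among the 5 called. SQLE had 1.36 (0.79 to 1.93; limma adjusted p = 0.12) between the acids and did not pass. Neither ADFP nor CPT1A was called between the acids. Elaidic acid minus oleic acid was 0.00 (-0.52 to 0.53) for ADFP and 0.07 (-0.44 to 0.57) for CPT1A. Against control ADFP had 0.31 with oleic acid and 0.31 with elaidic acid, and CPT1A had 0.37 and 0.43. Fatty acid oxidation had medians of -0.04 and 0.09 against control and 0.11 between the acids, and cell cycle genes 0.22, 0.73 and 0.51. The medians of all probes were 0.01, 0.02 and 0.01.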

How the data were processed

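The deposited values are background-subtracted linear intensity, 1 value per probe and sample, per the file headers and labels; how the authors combined the 2 technical replicates of a sample, and the background method, are not given in the sources used here. The table holds 30968 probes, 17397 with a symbol, printed as deposited.

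For the 8 samples of the comparison, 6040 probes (19.5%) with a value at or below 0 on any array were left out, 91.0% of them with a mean intensity under 10. The other 24928 were log2 transformed, quantile normalised and fitted by limma (version 3.58.1, R 4.3.3; lmFit and eBayes), with two-sided p-values adjusted by Benjamini-Hochberg over all probes. Only these 8 samples were fitted, because elaidic acid is split between 2 ranges of array numbers. The number of arrays, 4 per group, limits the precision. The test was checked on simulated data with noise drawn separately for each probe and array. Such data hold no spread shared by the probes of an array, so the check does not cover it. Figures used matplotlib 3.10.9 in Python 3.11.15.

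A list gene was represented by its brightest probe. Named genes were a fixed set of 21 lipid genes, of which some items are not reported here, the 2 of smallest p and the narrowest interval in each of the 8 lipid lists, the 1 of smallest p in each of the other 7, and the 6 probes of smallest p on each side of 0. RRM2, MKI67, PCNA, PPARA, HADH, ACADVL, FDFT1, SREBF2, SCAP and DGAT1 were added for their roles after their values were seen. The members and lists were chosen with earlier results of these data known. Replicate numbers were not used to pair the samples in the main fit. The 22 alternatives covered normalisation, dim probes, variance models, the samples fitted, the replicate block and leaving out each sample; leaving aside the 2 dimmest arrays and a covariate for array brightness were chosen after seeing the data.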

Additional observations from a re-analysis of the deposited data

Results flagged for a closer look

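In 7 of 118 groups of 4 arrays examined, 1 array stood apart from the other 3 by more than the 95% limit of Dixon's test. Chance gives this in about 1 in 20 groups. The 7 were all of named genes. In oleic acid replicate 4, ELOVL6 was high at 10.35 (nearest 9.68), LPIN1 was low at 8.77 (nearest 9.76) and APOB was low at 11.85 (nearest 12.35) on the normalised log2 scale. In control replicate 1, the sterol exporter ABCA1 was low at 7.93 (nearest 9.07). These are the 2 dimmest arrays, and the part of brightness in these values was not tested. ANGPTL4 was low in oleic acid replicate 1 at 6.52 (nearest 6.77), ABCG5 was high in control replicate 2 at 10.92 (nearest 10.22), and OGG1 was low in control replicate 3 at 0.36 (nearest 1.87), where the probe is near background.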

How the results depend on the processing

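In all 22 alternatives limma called 0 probes, and the lowest adjusted p was between 0.288 and 1.0. The count at an unadjusted p under 0.05, 519 as reported, was 50 with the dimmer 50% of probes left out, 308 with an intensity trend, 311 without normalisation, 780 without the 2 dimmest arrays, 789 with brightness as a covariate and 1269 with array weights. Of the lipid genes, 60 had an interval inside 2-fold; this was 26 without normalisation, 35 with the replicate block, and between 37 (without control replicate 3) and 58 when 1 array was left out, and 89 with array weights. With the replicate block 0 probes were called and 497 had an unadjusted p under 0.05. Deviations of same-numbered samples from their group means correlated with r of -0.09, 0.07, -0.00 and -0.32. The highest r of any pair, 0.39, was between control replicate 1 and oleic acid replicate 4, the 2 dimmest arrays. Such r cannot tell whether same-numbered samples were handled together, because any other difference between arrays enters them too.

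Of 51 named probes, 39 kept their sign in every alternative that tested them and 12 did not, namely PDK4, ANGPTL4, FABP1, FADS2, INSIG1, DGAT2, APOB, ABCA1, ACSL4, PLTP, LRAT and TTC26, the last at 0.00 with a floor of 10. All values of TTC26 lay under that floor, so its 0.00 was fixed in advance. The median of SREBP control ran from -0.47 to -0.05, that of fatty acid synthesis from -0.27 to -0.08, that of uptake from -0.23 to -0.01, that of fatty acid oxidation from -0.22 to 0.11, that of triglyceride synthesis from -0.21 to 0.05, that of apolipoproteins from -0.24 to 0.01, that of LXR targets from -0.24 to 0.02, and that of cell cycle genes from -0.00 without normalisation, which moved the median of all probes to -0.12, to 0.36 without the 2 dimmest arrays. With every probe kept at a floor of 10, several dim probes moved towards 0, as values under the floor become equal. ACSL3 was at 0.06, TBP at -0.05, C9orf61 at -0.21, IL26 at -0.38 and OGG1 at 0.62. Dim probes and 4 arrays per group limit what these data bound.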
